A study of Mus musculus with 6 samples.

Results

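The MYC network is a set of transcription factors that bind DNA in pairs through a basic helix-loop-helix leucine zipper. MYC, MYCN and MYCL pair with MAX on the E-box sequence and recruit coactivators that raise transcription of genes for growth and division. MXD1, MXD3, MXD4, MXI1 and MNT pair with the same MAX and recruit SIN3 corepressors, so the set holds activators, a shared partner and antagonists. In neural progenitors Mycn is best known for supporting expansion of the progenitor pool, and Myc is used widely by dividing cells. RNA polymerase II (Pol II) occupancy at these genes was taken from POLR2A ChIP-seq. The 9 genes Myc, Mycn, Mycl, Max, Mxd1, Mxd3, Mxd4, Mxi1 and Mnt were chosen by symbol and make up 27 of the 36321 gene regions and 9 of the 12107 genes in the data.

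ChIP-seq was carried out with an antibody against the N terminus of RPB1 (POLR2A), the largest Pol II subunit, on 3 Armc5 knockout libraries (KO, genotype Armc5(-/-) on the labels) and 3 WT libraries. ARMC5 is the substrate-binding part of a ubiquitin ligase that marks POLR2A for degradation. Both groups were mouse neural stem cells of the labelled strain 129 sv X CD1, grown as neurospheres in epidermal growth factor from ganglionic eminences of embryonic day 13.5, with no treatment on the labels. The libraries were numbered as 3 pairs of biological replicates. Every gene had read counts for 3 regions. The promoter window reached from 400 bases before to 100 bases after the transcription start, and the gene body window from there to 100 bases before the transcription end site (TES). The TES region covered the last 100 bases of the gene and the following 2000 bases. Values are given as CPM, read counts put on a common library size after TMM scaling, which sets aside the regions that differ most between libraries. Because the material is bulk chromatin, fewer cells with Pol II on a gene and less Pol II per cell cannot be told apart.

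Each library had between 14528870 and 25199455 reads in the regions. The share of reads in promoters was 12.2%, 10.98% and 6.88% in KO replicates 1, 2 and 3 and 10.9%, 11.2% and 6.04% in WT replicates 1, 2 and 3, so both libraries of pair 3 stood apart. Y-linked regions had 124 to 145 CPM in the 3 KO libraries, 234 and 197 CPM in WT replicates 1 and 2 and 0.620 CPM in WT replicate 3, so this library was far below its pair partner. Values without pair 3 or without WT replicate 3 are given beside part of the results. Of the 8 neural stem cell markers 7 were measured (Sox2, Nes, Pax6, Vim, Fabp7, Hes1 and Hes5), with a summed gene body signal of 273 to 521 CPM in KO and 240 to 512 CPM in WT. Neuron markers were measured for 5 of 7 genes, at 717 to 819 CPM in KO and 654 to 890 CPM in WT. None of 5 mesenchymal markers was among the measured genes. Armc5 itself was not analysed here.

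The genes differ in size, which sets how many reads each gene body collects. In GRCm38 with GENCODE coordinates, Myc lies on chromosome 15 from 61985391 to 61990374 (+ strand), Mycn on chromosome 12 from 12936093 to 12941914 (- strand) and Mycl on chromosome 4 from 122995652 to 123002485 (+ strand). Max lies on chromosome 12 from 76937269 to 76962201 (- strand). Among the antagonists, Mxd1 lies on chromosome 6 from 86647042 to 86669161 (- strand), Mxd3 on chromosome 13 from 55325168 to 55329823 (- strand) and Mxd4 on chromosome 5 from 34173883 to 34187720 (- strand). Mxi1 lies on chromosome 19 from 53310518 to 53375810 (+ strand) and Mnt on chromosome 11 from 74830920 to 74845725 (+ strand). The gene coordinates behind the counts are not given in the sources used here, so lengths per kilobase rest on this annotation. The windows of Myc, Mycn, Mycl and Mnt overlapped no other annotated gene. The TES window of Mxd3 lies wholly inside Prelid1, a gene on the opposite strand, and ChIP reads carry no strand, so its TES signal cannot be assigned to Mxd3. The gene bodies of Max, Mxd1, Mxd4 and Mxi1 overlap short annotated transcripts (Gm47218, Gm44292, Gm42846, and AC133451.2 with Gm10197).

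Promoter sequence was at hand from RefSeq (GRCm38.p6) for 8 of the 9 genes, in 10 entries, since Mxi1 has 3 start sites. The sequences of 3 genes are shown: Mycn because it is the MYC gene with sequence at hand before every annotated start, and Mxd4 and Mnt because theirs were the promoters with an E-box, the site that MYC, MXD and MNT proteins themselves bind with MAX. The Mycl entry begins within the annotated gene, so it is not the promoter window counted here and is not shown. Matches were searched on either strand to the E-box CACGTG, the GC box GGGCGG, the TATA box TATAAA and the CCAAT box CCAAT, and capitals mark them. Only bases before every annotated start, or a window of 30 bases around a match, are printed, each 5′ to 3′ along the gene's strand.
Mycn, chr12:12941915-12942086, - strand: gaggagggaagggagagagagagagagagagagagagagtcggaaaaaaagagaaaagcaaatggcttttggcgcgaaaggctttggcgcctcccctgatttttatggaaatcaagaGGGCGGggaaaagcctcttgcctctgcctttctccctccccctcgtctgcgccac
Mxd4, chr5:34187721-34187960, - strand: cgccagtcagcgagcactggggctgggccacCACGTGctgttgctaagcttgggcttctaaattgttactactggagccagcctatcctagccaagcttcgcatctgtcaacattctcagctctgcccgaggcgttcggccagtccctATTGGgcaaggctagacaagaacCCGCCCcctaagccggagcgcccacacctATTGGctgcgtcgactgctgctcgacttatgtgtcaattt
Mnt, chr11:74830789-74830818, + strand: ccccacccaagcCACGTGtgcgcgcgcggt

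The E-box of Mxd4 starts 219 bases before the RefSeq start. That of Mnt starts 123 bases before the start of its promoter entry, beside another RefSeq start of the gene further upstream. Over all 32851 promoters of the same 250 bases, 6.02% held the E-box, 32.7% the GC box, 12.4% the TATA box and 33.8% the CCAAT box. The Mycn sequence above holds a GC box 133 bases before its start. Mxd1 held 6 GC boxes and 4 CCAAT boxes, Mxd3 held 8 GC boxes and Max held none of the 4 motifs. The entries of Mxd1, Mxd3 and Max reach into the RefSeq gene, so some of their bases lie after an annotated start. A match describes letters only, and Pol II signal was not measured at single motifs.

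In gene bodies Myc gave the highest mean signal per kilobase and Mycn the lowest of the 3 MYC genes, and both changed more between replicate pairs than between genotypes. Myc gene bodies had 93.9, 26.5 and 26.8 CPM in KO replicates 1, 2 and 3 and 107, 20.9 and 23.4 CPM in WT replicates 1, 2 and 3. Both libraries of pair 1 were therefore far above the other 4 libraries, whatever the genotype. Mycn gene bodies ran the other way, with 5.29, 18.7 and 10.6 CPM in KO and 4.69, 19.2 and 8.04 CPM in WT. Both libraries of pair 1 were the lowest for Mycn and both libraries of pair 2 were the highest. Mycl gene bodies had 23.6, 27.7 and 18.1 CPM in KO and 23.6, 30.4 and 14.1 CPM in WT, a narrower range with pair 2 highest in both groups.

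**Figure D1:**
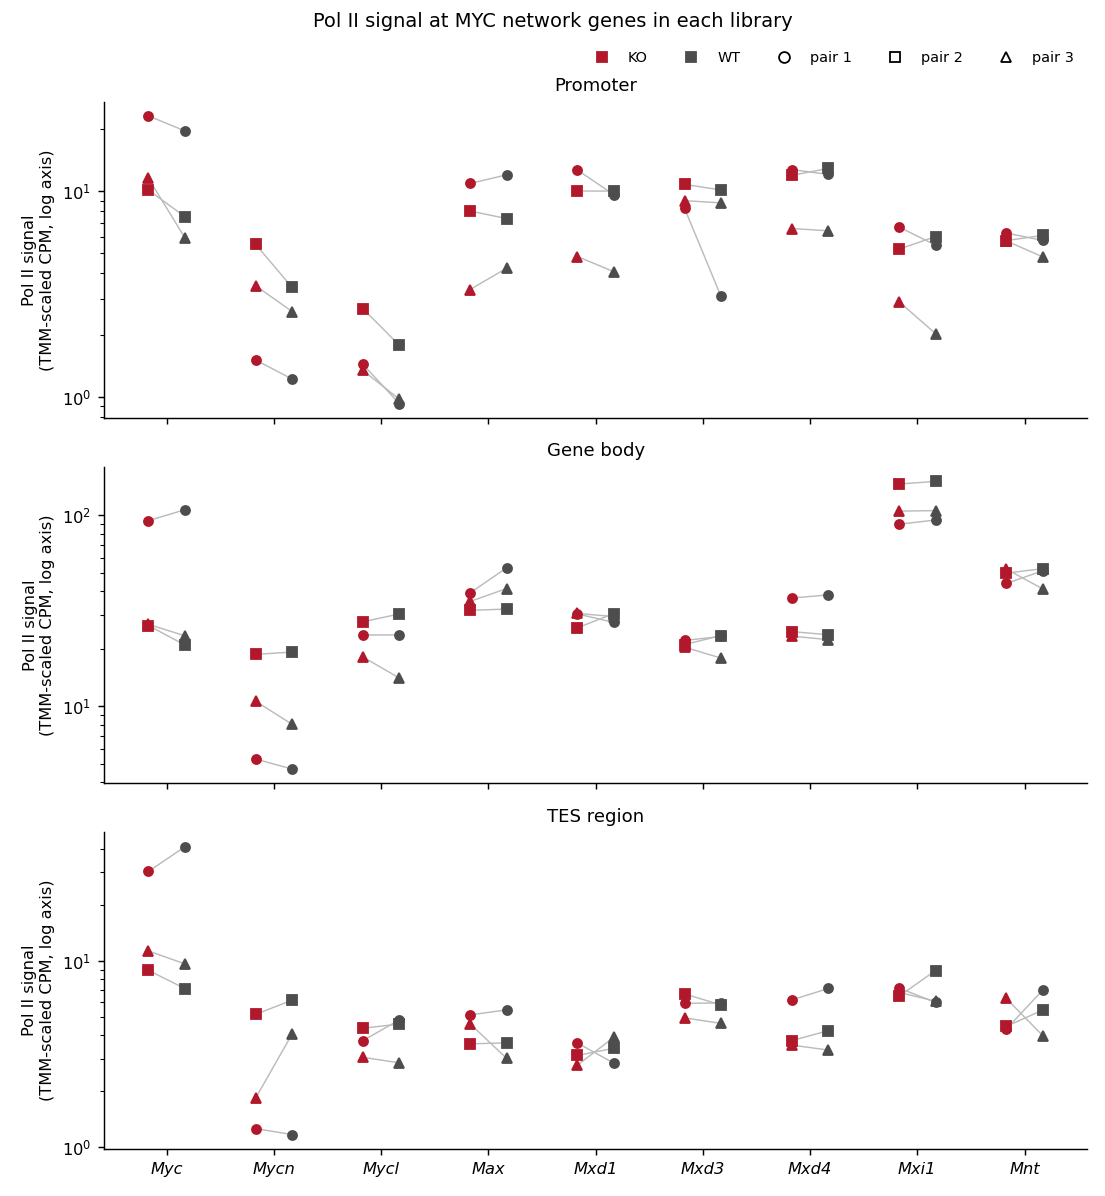
Pol II signal (TMM-scaled CPM, log axis) at the promoter, gene body and TES region of the 9 genes in each library, KO left of WT, with lines joining the libraries of a pair. The 2 circles of pair 1 stand far above the rest for Myc gene bodies (93.9 CPM in KO and 107 CPM in WT) and lowest for Mycn (5.29 CPM in KO and 4.69 CPM in WT).

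Per kilobase, the Myc gene body carried 20.9, 1.66 and 2.97 times the signal of Mycn in KO replicates 1, 2 and 3 and 26.8, 1.28 and 3.42 times in WT replicates 1, 2 and 3. Of the summed signal per kilobase over Myc, Mycn and Mycl, Myc made up 81.3%, 42.4% and 54.8% in KO and 83.6%, 35.3% and 58.0% in WT. Mycn made up 3.90%, 25.5% and 18.5% in KO and 3.12%, 27.6% and 16.9% in WT. The balance of the 3 paralogs thus followed the pair, and the KO and WT shares of Myc differed less within any pair than between pair 1 and either other pair. The promoters gave the same order of pairs for Myc, with a share of 88.7%, 55.2% and 70.6% in KO and 90.1%, 59.2% and 62.4% in WT.

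**Figure D2:**
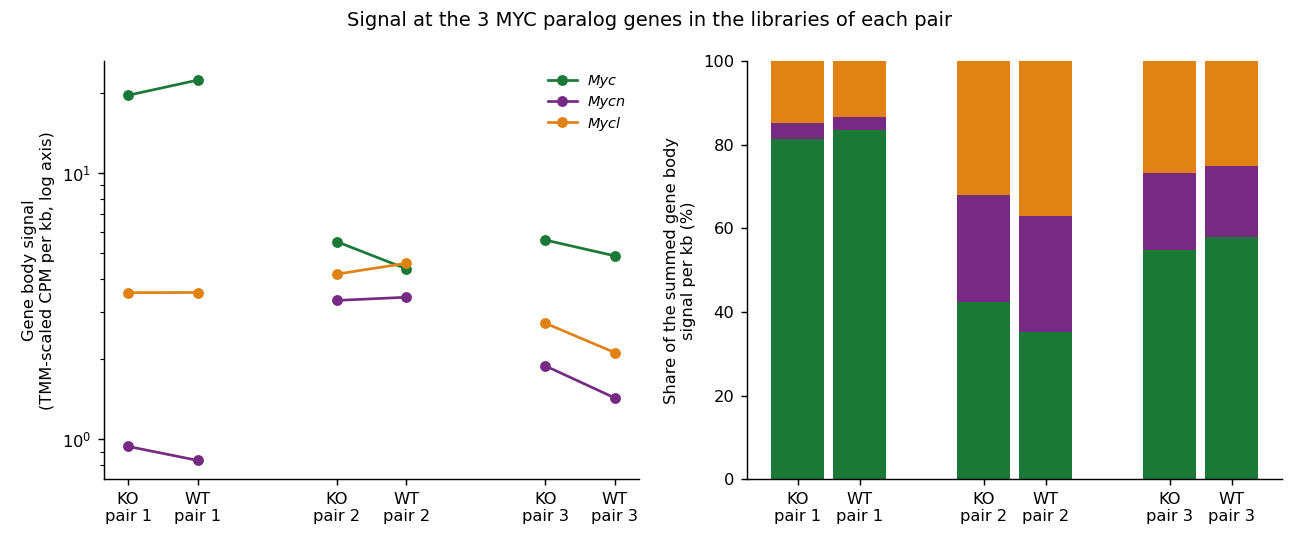
Left, gene body signal per kilobase (TMM-scaled CPM per kb, log axis) of Myc, Mycn and Mycl in each library, with KO left of WT in each pair. Right, the share (%) of each gene in the sum of the 3. Myc took 81.3% in KO and 83.6% in WT of pair 1, against 42.4% in KO and 35.3% in WT of pair 2.

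The spread between pairs was measured for every gene body with a mean of at least 10 reads as the range of the mean log2 signal over the 3 pairs. The median range over 12106 gene bodies was 0.56 on the log2 scale. Myc had a range of 2.09 (4.25-fold), which only 0.413% of gene bodies exceeded. Mycn had a range of 1.92 (3.79-fold), exceeded by 0.686%. The range was of similar size within each genotype, at 1.83 in KO and 2.35 in WT for Myc between pairs 1 and 2, and 1.82 in KO and 2.03 in WT for Mycn. The TES regions repeated it, with a 4.42-fold range for Myc and a 4.58-fold range for Mycn. Promoters spread more overall (median range 1.06), and there Myc with 1.37 and Mycn with 1.66 were exceeded by 24.2% and 10.4% of promoters. By this mean of KO and WT, the steadiest gene bodies were those of 3 antagonists. Mnt, an antagonist present in dividing and resting cells alike, had a 1.10-fold range, Mxd1 a 1.07-fold range and Mxd3 a 1.19-fold range. The mean hides unlike changes in the 2 genotypes. From the lowest to the highest pair the log2 change was -0.07 in KO and 0.35 in WT for Mnt. It was 0.25 in KO and -0.05 in WT for Mxd1, and 0.12 in KO and 0.38 in WT for Mxd3. Max had a 1.42-fold range, Mxi1 1.61-fold, Mxd4 1.65-fold and Mycl 1.82-fold. Pair 1 had the highest gene body mean for Myc, Max, Mxd3 and Mxd4, pair 2 for Mycn, Mycl, Mxi1 and Mnt, and pair 3 for Mxd1.

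**Figure D3:**
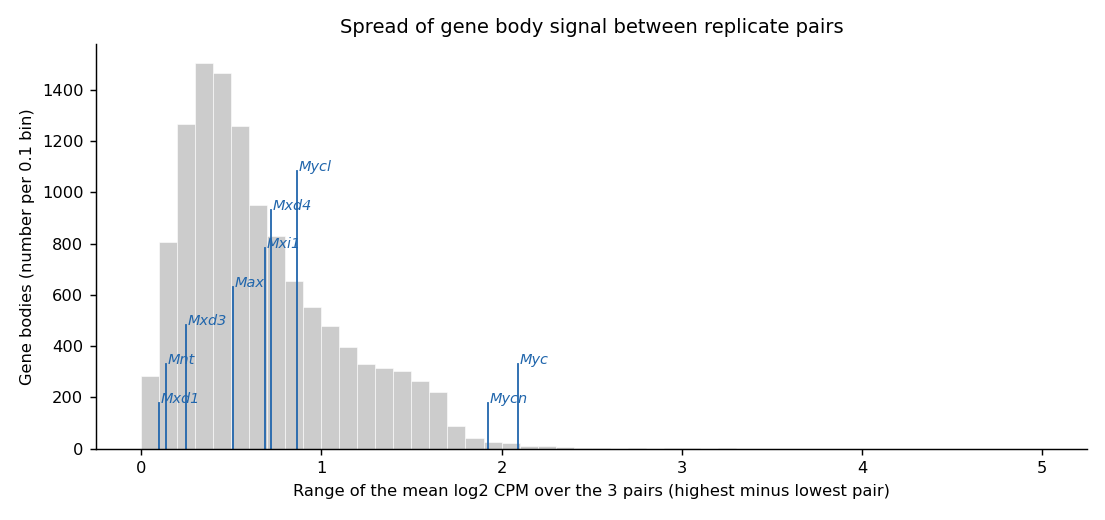
Number of gene bodies (bars, 0.1 bins) by the range of their mean log2 CPM over the 3 pairs, with the 9 genes marked by lines whose height has no meaning. Myc at 2.09 and Mycn at 1.92 lie in the upper tail, while Mxd1 and Mnt lie near 0.

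The sum over Myc, Mycn and Mycl was 1.79, 0.976 and 0.794 times the sum over the 5 antagonists per kilobase of gene body in KO replicates 1, 2 and 3. In WT replicates 1, 2 and 3 it was 1.88, 0.865 and 0.738 times that sum. Pair 1 was the only pair in which the MYC gene bodies carried more signal than those of their antagonists, in both genotypes. In promoters the MYC genes stayed below their antagonists in every library. The ratio there was 0.56, 0.42 and 0.56 in KO and 0.61, 0.28 and 0.36 in WT. Max, the partner of every one of them, had 1.59, 1.29 and 1.43 CPM per kb in KO and 2.15, 1.30 and 1.67 CPM per kb in WT.

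Other genes followed the same pairs. Across the 6 libraries, Myc and Mycn gene bodies had a Pearson r of -0.84 on the log2 scale. This description rests on 3 pairs, and depth differed between the libraries of a pair. Of 11750 gene bodies with a mean of at least 100 reads, those closest to Myc were Ndufv2 (r = 0.996), a subunit of mitochondrial complex I, Mlycd (r = 0.995), malonyl-CoA decarboxylase, and Atp13a1 (r = 0.994), a transporter of the P5 ATPase group. Pearson r does not measure the size of a change, and all of these spread far less between pairs than Myc. Ndufv2 had 54.5, 45.6 and 45.7 CPM in KO and 55.0, 44.5 and 44.0 CPM in WT. Closest to Mycn were Slc2a1 (r = 0.993), the glucose transporter GLUT1, Ggt7 (r = 0.991), a member of the gamma-glutamyltransferase family, and Neurod2 (r = 0.988), a transcription factor of maturing neurons. Slc2a1 had 26.3, 73.2 and 43.0 CPM in KO and 23.8, 78.1 and 40.9 CPM in WT, so pair 1 was lowest and pair 2 highest in both genotypes. Neurod2 had 1.73, 9.83 and 5.03 CPM in KO and 1.95, 9.34 and 2.84 CPM in WT, in the same order.

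Gene lists, chosen with earlier results of these data known, were compared between pairs. Over all genes pair 1 was higher than the mean of the other pairs in 4913 of 12107 gene bodies. Pair 1 was higher than the mean of the other pairs in 14 of 14 nucleolar and ribosome biogenesis genes known as MYC targets, with a median log2 difference of 0.61, against -0.12 over all gene bodies. Among them, Npm1, nucleophosmin, had 93.0, 46.2 and 57.7 CPM in KO and 90.3, 43.7 and 44.7 CPM in WT. Pair 2 was below the mean of the other pairs in all 14, with a median of -0.57, against -0.06 over all gene bodies. That mean includes pair 1, so a high pair 1 lowers the value of pair 2. Over all genes pair 2 was above the mean of the other pairs in 4979 of 12107 gene bodies. Metabolic and translation targets were above in pair 1 for 7 of 9 genes (median 0.54), and cell cycle targets for 4 of 6 (median 0.47). Hk2, hexokinase 2, went against its list with 27.0, 73.0 and 62.1 CPM in KO and 29.4, 89.1 and 62.1 CPM in WT. Genes that MYC is known to repress were above in pair 1 as well, for 3 of 5 (median 0.40), as were the corepressor genes, for 7 of 7 (median 0.27). Genes of MYC protein turnover were above for 3 of 6 (median -0.11) and regulators of Myc and Mycn for 4 of 10 (median -0.12). Neural stem cell markers were above in pair 1 for 6 of 7 genes (median 1.04), and neuron markers for 1 of 5 (median -1.10). Ganglionic eminence progenitor markers were above for 2 of 4 in pair 1 (median -0.09) and for 3 of 4 in pair 2 (median 0.70). The summed signal of these progenitor markers was highest in pair 1, at 214, 91.2 and 67.1 CPM in KO and 216, 78.1 and 68.2 CPM in WT. In pair 2 neuron markers were above for 4 of 5 (median 1.03). Their summed signal went the other way and was highest in pair 1, at 819, 717 and 754 CPM in KO and 890, 654 and 795 CPM in WT. The part of cell makeup, depth or culture in the split between pairs was not tested.

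Between KO and WT, none of the 27 regions of the 9 genes passed an adjusted p of 0.1 in the limma-voom fit that took the pairs as a block. In that fit 49 of all 36321 regions were called (0.135%), 44 higher and 5 lower in KO. Read against that share, a count of 0 of 27 is no result about the members. By region, the calls were 21 of 12107 promoters (0.173%), 25 gene bodies (0.206%) and 3 TES regions (0.0248%). In none of the 27 regions did the 3 KO and 3 WT values separate without overlap, which 1060 of all regions did (2.92%). The smallest adjusted p of the members was 0.437 (limma). Without the block, 0 of all 36321 regions were called.

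The promoters of the 3 MYC genes were higher in KO in each of the 3 pairs. By adjusted p (limma) the Myc promoter came first of the 27 regions (0.437). The Max gene body, lower in KO, was next (0.508), ahead of the promoters of Mycn (0.524) and Mycl (0.598). Of the 9 promoters, 3 had an unadjusted p under 0.05 and a higher value in KO (Myc, Mycn and Mycl), as did 914 of all promoters (7.55%). A higher value in KO in 3 of 3 pairs was seen for 5 of 9 promoters, the other two being Mxd1 and Mxd3, and for 2187 of all promoters (18.1%). The median log2 fold change was 0.21 over the 9 promoters and 0.03 over all promoters. Because no member passed the threshold, these are values and not calls.

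The Myc promoter had 23.2, 10.1 and 11.5 CPM in KO replicates 1, 2 and 3 and 19.6, 7.52 and 5.93 CPM in WT replicates 1, 2 and 3. The groups overlapped, since WT replicate 1 was above KO replicates 2 and 3, but KO was higher within each pair, by 0.24, 0.43 and 0.96 on the log2 scale. The fitted log2 fold change was 0.43 ± 0.14 (SE, 3 pairs), with a 95% interval of 0.13 to 0.73 and an adjusted p = 0.437 (limma). With all libraries the Myc promoter was not called, and single omissions in pair 1 changed this. Without KO replicate 1 it passed the threshold at 0.63 (adjusted p = 0.0516, limma) and without WT replicate 1 at 0.64 (adjusted p = 0.0524). Without both it did not (0.64, adjusted p = 0.109). With the pair as a block, a library without its partner adds nothing to the genotype difference, so these settings are nearly the same check. Over all regions the calls rose from 49 to 546 and 545 in the single omissions. Without pair 3 the value was 0.32 (adjusted p = 0.559) and without WT replicate 3 it was 0.31 (adjusted p = 0.575).

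The Mycn promoter had 1.51, 5.52 and 3.47 CPM in KO and 1.22, 3.40 and 2.60 CPM in WT. The pair differences were 0.30, 0.69 and 0.41, while the range between pairs in either group was far wider. Its log2 fold change was 0.54 ± 0.21 (SE, 3 pairs; 95% interval 0.09 to 0.99; adjusted p = 0.524, limma), 0.60 without pair 3, and 0.35 and 0.36 without KO and WT replicate 2. Mycl had the weakest promoter of the 9 genes, at 1.44, 2.69 and 1.35 CPM in KO and 0.928, 1.78 and 0.975 CPM in WT. KO was higher by 0.62, 0.59 and 0.45 in the pairs, and the fit gave 0.57 ± 0.26 (SE, 3 pairs; 95% interval 0.01 to 1.13; adjusted p = 0.598, limma). These are small counts. In WT replicate 3 the Mycl promoter held 12 reads, with an exact 95% Poisson interval of 6.20 to 21.0 that covers counting error only, and in KO replicate 3 it held 19 reads (11.4 to 29.7). A RefSeq start of Mycl lies past this promoter window, inside the gene body window of the annotation used here. Signal at that start would count in the gene body.

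The Mxd3 promoter had 8.24, 10.8 and 8.99 CPM in KO and 3.08, 10.1 and 8.77 CPM in WT. MXD3 is an antagonist best known from dividing cells, whereas MXD1 and MXD4 are known for rising as cells leave the cycle. WT replicate 1 alone was low, and the pair differences were 1.41, 0.09 and 0.04. Its log2 fold change of 0.45 ± 0.22 (SE, 3 pairs; adjusted p = 0.631, limma) was 0.07 without WT replicate 1 and 0.08 without pair 1. The Mxd1 promoter had 12.7, 10.0 and 4.81 CPM in KO and 9.62, 10.0 and 4.06 CPM in WT, a log2 fold change of 0.21 ± 0.14 (SE, 3 pairs; adjusted p = 0.740, limma) that was 0.07 without pair 1. Its KO and WT values in pair 2 were nearly equal. The promoters of Max, Mxd4, Mxi1 and Mnt differed by -0.08 to 0.12 on the log2 scale.

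**Figure D4:**
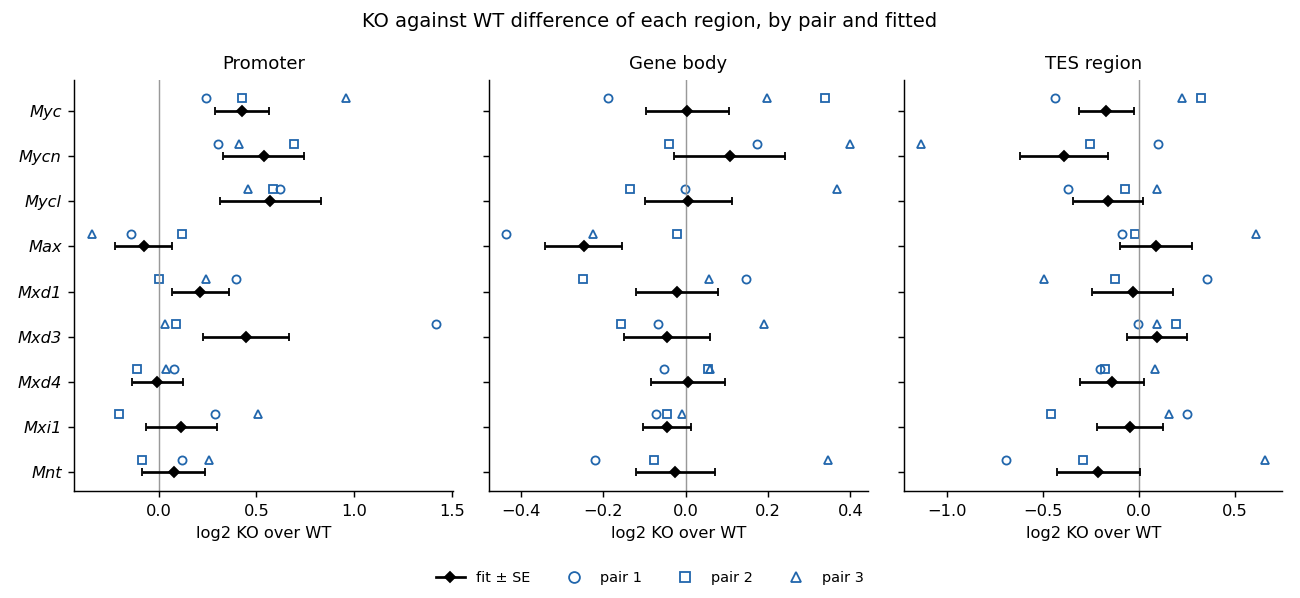
Log2 difference of KO over WT in each region of the 9 genes, as the fitted value ± SE (diamonds) and for each of the 3 pairs (open symbols); the panels have different scales. Myc, Mycn and Mycl promoters lie right of 0 in all 3 pairs, and the Mxd3 promoter is carried by pair 1 at 1.41.

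Gene bodies, which reflect elongating Pol II, gave a different picture from the promoters. Myc differed by 0.00 ± 0.10 on the log2 scale (SE, 3 pairs), and its 95% interval of -0.21 to 0.22 leaves room for a difference of that size either way. KO was lower in pair 1 (-0.19) and higher in pairs 2 and 3 (0.34 and 0.20). Mycn differed by 0.11 ± 0.13 (95% interval -0.18 to 0.40), and by 0.03 without pair 3. Of the 9 gene bodies 4 were above 0, as were 5488 of all 12107, and the median of -0.02 stood beside -0.01 over all gene bodies. Apart from Max and Mycn, the 7 gene bodies lay between -0.05 and 0.01.

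The Max gene body had 39.3, 31.8 and 35.4 CPM in KO replicates 1, 2 and 3 and 53.1, 32.3 and 41.4 CPM in WT replicates 1, 2 and 3. KO was lower in each pair, by -0.43, -0.02 and -0.22, although the groups overlapped and pair 2 was nearly level. The log2 fold change was -0.25 ± 0.09 (SE, 3 pairs; 95% interval -0.45 to -0.05; adjusted p = 0.508, limma). It was -0.10 without pair 1 and -0.24 without pair 3. Max was the only member with an unadjusted p under 0.05 and a lower gene body in KO, as were 435 of all gene bodies (3.59%). The Max promoter did not share the direction across pairs, with 10.9, 8.01 and 3.33 CPM in KO and 12.01, 7.36 and 4.22 CPM in WT.

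TES regions, where Pol II slows and leaves the gene, were lower in KO in 3 of 3 pairs for 2500 of all genes (20.6%) and for 0 of the 9. Their log2 fold changes ran from -0.39 to 0.10, the upper end being Mxd3, whose TES reads cannot be told from those of Prelid1, and the next Max at 0.09. The median was -0.14, beside -0.08 over all TES regions. The lowest was Mycn, with 1.26, 5.18 and 1.84 CPM in KO and 1.17, 6.17 and 4.06 CPM in WT. Pair 3 made most of it, and the value of -0.39 ± 0.23 (SE, 3 pairs; adjusted p = 0.694, limma) was -0.16 without pair 3 and -0.18 without WT replicate 3. The Myc TES region had 30.3, 8.92 and 11.3 CPM in KO and 41.1, 7.12 and 9.67 CPM in WT, with KO lower in pair 1 and higher in pairs 2 and 3.

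The ratio of promoter to gene body signal, a pausing index, compares Pol II held near the start with Pol II along the gene and is free of differences in the signal of the whole gene. None of the 9 genes passed an adjusted p of 0.1, as against 4 of 12096 genes in all (0.0331%). Per base, the Myc ratio was 2.37, 3.66 and 4.12 in KO and 1.76, 3.44 and 2.44 in WT, or 3.38 ± 0.91 in KO and 2.55 ± 0.85 in WT (SD, n = 3 each). It was higher in KO in every pair, by 0.43 ± 0.19 on the log2 scale (SE, adjusted p = 0.454, limma), and by 0.26 without pair 3. Myc was the 1 member with an unadjusted p under 0.05 and a higher ratio in KO, which 853 of all genes had (7.05%). The Mycl ratio was 0.819, 1.30 and 1.01 in KO and 0.534, 0.785 and 0.956 in WT, 0.47 ± 0.22 on the log2 scale (SE, adjusted p = 0.477, limma). The Mycn ratio was 3.24, 3.33 and 3.70 in KO and 2.97, 2.00 and 3.67 in WT, 0.29 ± 0.19 (SE, adjusted p = 0.631, limma), with almost all of the difference in pair 2, and was 0.07 without it. The Mxd3 ratio of 0.52 ± 0.27 (SE, adjusted p = 0.521, limma) was 0.05 without pair 1, the pair with the low WT promoter. Over the other 5 genes the log2 difference ran from -0.02 to 0.24. The level of the ratio rests on the annotated starts and lengths, and no input was used. For Mycl, a RefSeq start lies inside the gene body window. Within these limits the ratio itself differed in level between the genes of the family. In KO it averaged 14.1 ± 6.23 for Mxd1, 10.3 ± 4.91 for Max and 10.1 ± 2.83 for Mxd4, against 1.04 ± 0.24 for Mycl (SD, n = 3 each), and the same 3 genes were the highest in WT. The level also differed by pair. In pair 3, with the lowest share of reads in promoters, Mxd1 had 6.93 in KO and 6.09 in WT. Max had 4.70 in KO and 5.10 in WT there, and both genes were higher in pairs 1 and 2.

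The ratio of TES region to gene body signal passed the threshold for 0 of 9 genes and for 1 of 12076 in all (0.00828%). Mycn was the only member with an unadjusted p under 0.05 and a lower ratio in KO, which 705 of all genes had (5.84%). Its ratio per base was 0.644, 0.744 and 0.471 in KO and 0.680, 0.861 and 1.36 in WT. KO was lower in each pair, but by -0.08 and -0.21 in pairs 1 and 2 and by -1.53 in pair 3, so the fitted -0.61 ± 0.27 (SE, adjusted p = 0.681, limma) was -0.14 without pair 3. Max ran higher in KO in each pair, with 1.55, 1.34 and 1.54 in KO and 1.22, 1.33 and 0.867 in WT, 0.39 ± 0.20 on the log2 scale (SE, adjusted p = 0.696, limma). Pair 2 was nearly level, and without pair 3 the value was 0.18.

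Levels were compared between genes per kilobase and only as an order. In gene bodies the mean over the 6 libraries was 10.4 CPM per kb for Myc, 4.79 for Mxd3, 3.46 for Mycl, 3.32 for Mnt, 2.07 for Mxd4, 1.97 for Mycn, 1.77 for Mxi1, 1.57 for Max and 1.33 for Mxd1. Of neighbours in this order, Mxd3 was above Mycl and Mnt above Mxd4 in all 6 libraries, while the other neighbours changed places in at least 1 library. With RefSeq lengths Mnt was above Mxd4 in 4 of 6, because that annotation makes Mxd4 shorter. Myc was above Mxd3 in 5 of 6 libraries and below it in WT replicate 2 and in no other. In promoters, of equal length for all genes, Myc averaged 26.0 CPM per kb, Mxd4 20.9, Mxd1 17.1, Mxd3 16.7, Max 15.3, Mnt 11.5, Mxi1 9.45, Mycn 5.91 and Mycl 3.05. There Mxd4 was above Mxd1 and Mycn above Mycl in all 6 libraries, and the other neighbours overlapped. For Mxi1 the promoter is that of a single start among several, so its promoter and gene body may belong to different isoforms.

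Partners and targets of the network were then counted in lists, against the share of all genes. No region was called among 3 genes of the MLX and MGA branch, which shares the MYC network's structure, 8 MYC coactivators, 7 corepressors and 6 genes of MYC protein turnover. In gene bodies the medians of these 4 lists lay between -0.03 and 0.02. All 8 coactivator promoters were above 0 (median 0.12, against 0.03 over all promoters), as were 6638 of all 12107 promoters. An unadjusted p under 0.05 with a higher value in KO was found for 1 of them, and for 914 of all promoters (7.55%). Mlx, the partner of the glucose-responsive MondoA branch, had 20.4, 16.98 and 18.1 CPM in KO and 14.4, 16.0 and 14.5 CPM in WT in its gene body, 0.30 ± 0.12 on the log2 scale (SE, adjusted p = 0.539, limma), and 0.17 without KO or WT replicate 1. Mga, a repressive member of the wider network, had -0.03 ± 0.06. The coactivators Ep400, a chromatin remodeller, and Kat2a, a histone acetyltransferase, had -0.09 ± 0.06 and 0.13 ± 0.11. Of the corepressor complex, Sap30 had 0.20 ± 0.11, which was 0.05 without KO or WT replicate 1, and Sin3b had -0.12 ± 0.09. Gsk3b, the kinase that marks MYC for degradation, had -0.05 ± 0.05, and Huwe1, a ubiquitin ligase for MYC, -0.06 ± 0.08.

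Among genes known as MYC targets, no region was called, and the cell cycle list stood highest. In that list 5 of 6 gene bodies and 6 of 6 promoters were above 0, with medians of 0.26 and 0.52, beside -0.01 over all gene bodies and 0.03 over all promoters. Of all 12107 genes, 5488 gene bodies and 6638 promoters were above 0. An unadjusted p under 0.05 with a higher value in KO was found for 4 of its 6 gene bodies, as for 583 of all gene bodies (4.82%). The same held for 3 of its 6 promoters and for 914 of all promoters (7.55%). Ccnd1, cyclin D1, had 181, 56.4 and 76.4 CPM in KO and 153, 45.3 and 70.4 CPM in WT in its gene body. KO was higher in 3 of 3 pairs, by 0.23 ± 0.06 in the fit (SE, adjusted p = 0.331, limma). Ccnd2, cyclin D2, had 261, 113 and 130 CPM in KO and 188, 94.2 and 130 CPM in WT, 0.29 ± 0.08 (SE, adjusted p = 0.301, limma), with KO higher in 2 of 3 pairs. It passed the threshold without KO replicate 3 (0.38, adjusted p = 0.0237, limma), without WT replicate 3 (0.38, adjusted p = 0.0225) and without pair 3 (0.40, adjusted p = 0.0114). Without KO or WT replicate 1 it was 0.14 (adjusted p = 0.589 and 0.583, limma), and without pair 1 it was 0.16 (adjusted p = 0.460). For both cyclins, as for Myc, pair 1 was the highest in each genotype.

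Of the nucleolar targets, 11 of 14 gene bodies were above 0 (median 0.10), as were 5488 of all 12107 gene bodies. An unadjusted p under 0.05 with a higher value in KO was found for 1 of the 14, and for 583 of all gene bodies (4.82%). Of their promoters, 7 of 14 were above 0 (median -0.02), as were 6638 of all 12107. Nop56, a box C/D ribonucleoprotein, had 39.3, 27.7 and 33.9 CPM in KO and 35.3, 22.6 and 22.7 CPM in WT, 0.30 ± 0.10 (SE, adjusted p = 0.438, limma). Its gap between KO and WT was widest in pair 3. It passed the threshold at 0.41 without KO replicate 1 (adjusted p = 0.0539, limma) or WT replicate 1 (adjusted p = 0.0563). Npm1 had 0.13 ± 0.08. Metabolic targets were above 0 for 7 of 9 gene bodies (median 0.10). Odc1, the first enzyme of polyamine synthesis, had 44.95, 26.1 and 35.0 CPM in KO and 34.5, 25.5 and 23.2 CPM in WT. Its difference was 0.31 ± 0.10 (SE, adjusted p = 0.438, limma), widest in pair 3 and small in pair 2. Hk2 had -0.16 ± 0.08, which was -0.07 without KO replicate 2 and -0.06 without WT replicate 2. Of 5 genes that MYC is known to repress, 1 gene body was called, beside 25 of all 12107 gene bodies (0.206%). The 1 in the list was Cdkn1a, the cell cycle inhibitor p21, with 56.4, 68.6 and 58.0 CPM in KO and 39.8, 46.5 and 41.2 CPM in WT, 0.52 ± 0.07 (SE, adjusted p = 0.0395, limma). In 181 of all 12107 gene bodies every KO value lay above every WT value. This held for Cdkn1a, a gene that the study picked from these libraries. Its call was lost without WT replicate 2 (0.50, adjusted p = 0.134, limma), without pair 2 (0.51, adjusted p = 0.242) and without the block (0.52, adjusted p = 1.00). Ndrg1, of the same list, had 15.0, 48.5 and 38.2 CPM in KO and 13.9, 72.7 and 43.3 CPM in WT, -0.33 ± 0.11 (SE, adjusted p = 0.450, limma). Ndrg1 rested on pair 2, since without KO replicate 2 it was -0.07 (adjusted p = 0.942, limma), without WT replicate 2 -0.06 (adjusted p = 0.954) and without pair 2 -0.06 (adjusted p = 0.962). Without pair 1, in which its signal was lowest, it passed the threshold at -0.44 (adjusted p = 0.0273, limma), and without KO or WT replicate 1 alone at -0.43 (adjusted p = 0.00419 and 0.00381).

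Of the regulators upstream of Myc and Mycn, 3 of 10 gene bodies were above 0, with a median of -0.08, beside 5488 of all 12107 gene bodies. Of the 10, 4 had an unadjusted p under 0.05 and a lower value in KO, beside 3.59% of all gene bodies, and none was called. Egfr, the receptor for the growth factor in the medium, had 761.8, 287 and 427 CPM in KO and 878, 292 and 483 CPM in WT. KO was lower in each pair, by -0.15 ± 0.05 in the fit (SE, adjusted p = 0.426, limma). It passed the threshold without KO replicate 2 (-0.20, adjusted p = 0.0379, limma) and WT replicate 2 (-0.20, adjusted p = 0.0979), but not without pair 2 (-0.18, adjusted p = 0.312), and it was -0.09 without pair 1 (adjusted p = 0.610). The pairs followed the order of Myc in that pair 1 was the highest and pair 2 the lowest. Tcf7l1, a repressor at the end of the WNT pathway, had 185, 146 and 220 CPM in KO and 222, 159 and 234 CPM in WT, -0.16 ± 0.06 (SE, adjusted p = 0.446, limma), and -0.11 without KO or WT replicate 1.

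**Figure D5:**
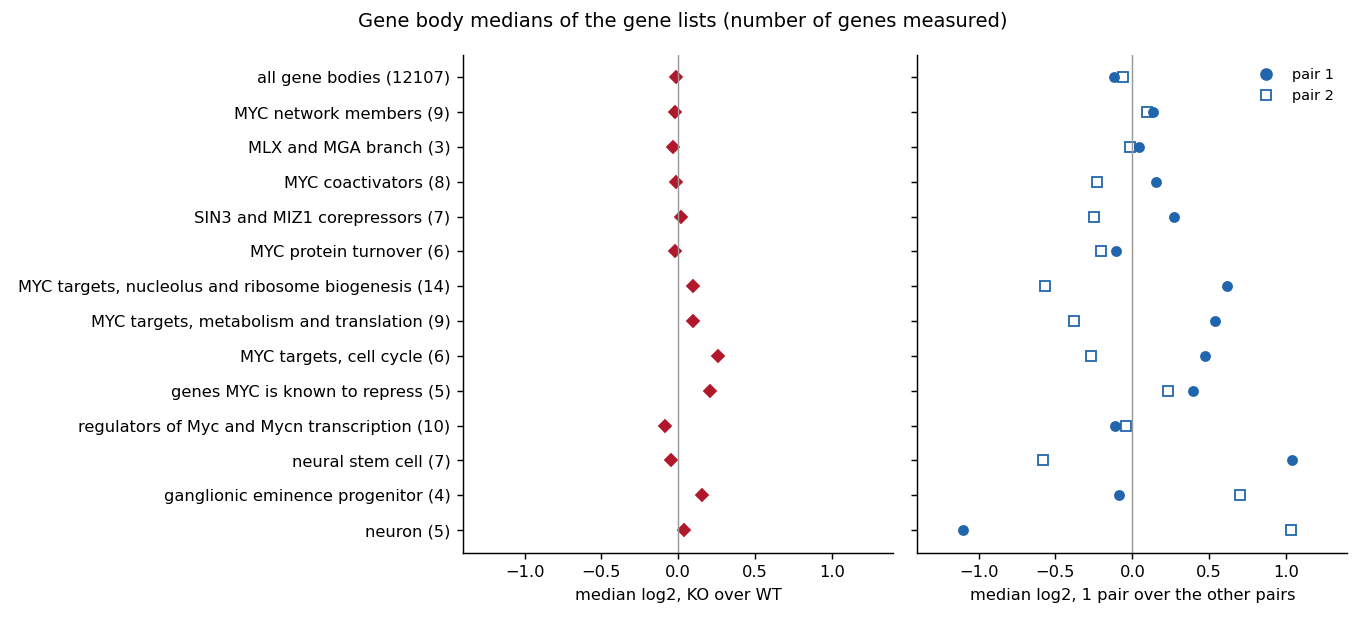
Median log2 differences of gene bodies in each gene list with at least 3 measured genes, KO over WT on the left and 1 pair over the mean of the other pairs on the right, with the number of genes measured in brackets. All plotted medians of KO over WT lie between -0.08 and 0.26, whereas neural stem cell markers and MYC targets are high in pair 1 (1.04 for the markers) and neuron markers are low (-1.10). Ganglionic eminence progenitor markers lie near 0 in pair 1 (-0.09) and high in pair 2 (0.70).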

How the data were processed

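POLR2A ChIP-seq libraries of 3 KO and 3 WT neural stem cell cultures were grouped and paired by the sample titles. The authors counted reads with HOMER and deposited whole-number counts per region, unnormalized, after removing genes without signal in KO, so genes silent in KO cannot appear. They also deposited log2 CPM from TMM and voom. The submitters' notes list MACS2, Picard, BWA, Trimmomatic and bcl2fastq 2.20 with the build GRCm38; the sources used here name no gene annotation. No spike-in or input was used here, so values are relative within a library.

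The counts of all 36321 regions were scaled by TMM and fitted with limma-voom (R 4.3.3, limma 3.58.1, edgeR 4.0.16), with genotype as the effect and the pair as a block, two-sided, Benjamini-Hochberg adjusted over all regions, called at 0.1. Same-numbered libraries deviated together (r 0.587 to 0.660 in promoters, 0.737 to 0.879 in gene bodies, 0.613 to 0.700 in TES regions); biological replicate pairs are stated in the study's methods. Ratios used log2 counts with 0.5 added, genes with a mean of at least 10 reads in both regions, and limma with a trend. No 2 libraries of a group were copies (chi-square per degree of freedom 28.6 to 76.9).

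The members and lists were chosen with earlier results of these data known, and the study picked Cdkn1a from these libraries. Of each list, called regions and the 2 gene bodies with the smallest p were named, and for Myc and Mycn the 3 gene bodies of highest r. Mlxipl, Actl6a, Skp2, Usp7, Ldha, Eif4e, Notch1 and Rbpj were not analysed here. Alternatives were no block, edgeR quasi-likelihood, DESeq2 1.42.0, other scalings, a count filter, the deposited log2 values, other pseudocounts and leaving out libraries or pairs. With the pair as a block, leaving out a library also removes its partner from the genotype difference. It therefore gives nearly the same difference as leaving out the pair.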

Additional observations from a re-analysis of the deposited data

How the results depend on the processing

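No member region was called under the 8 other fits, and no member ratio under any alternative. Leaving out libraries or pairs gave 0 to 1 called member regions, the 1 being the Myc promoter without KO or WT replicate 1 (0.63 and 0.64). Its log2 fold change ranged from 0.40 to 0.64 over the other fits and from 0.31 to 0.64 with libraries or pairs left out. Over all regions, 49 calls became 0 with no replicate block, 85 with TMM within each region, 19 with scaling on gene bodies of low signal, and 11 to 546 with libraries or pairs left out, so the number of calls rests strongly on pairs and scaling. The Myc gene body, near 0, was -0.028 with scaling on gene bodies of low signal and -0.13 to 0.29 with libraries or pairs left out. Of 602 values over 45 single results, 531 kept direction and side of the threshold, 69 changed sign and 2 passed the threshold. The sign changes fell on 20 results whose size did not exceed 0.21 on the log2 scale. Of the other genes named, Cdkn1a was 0.52 and no longer called with no replicate block, and with libraries or pairs left out Mga ran from -0.093 to 0.012, Sin3b from -0.23 to 0.024 and Huwe1 from -0.16 to 0.072. DESeq2 gave an adjusted p to 21 of the 27 regions. With 3 pairs, the median SE was 0.16 at the member promoters, 0.10 at their gene bodies and 0.18 at their TES regions. Differences well above the SE were still not called, such as 0.57 at the Mycl promoter and -0.25 at the Max gene body.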
